A study of Mus musculus with 8 samples.

Results

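The mRNA abundance of Dis3l2 knockout and control mouse embryonic stem cells (mESCs) was compared in the 4 input libraries of a ribosome profiling experiment, over every gene whose mean over these libraries was at least 10 normalised units. That filter kept 7946 of the 8125 genes listed. Input is the mRNA sequenced in parallel with ribosome-protected fragments (RPFs), which survive nuclease because ribosomes cover them. The knockout cells were Dis3l2 -/- and the control cells were heterozygous, Dis3l2 +/-, so the control also carried a disrupted allele. Both came from TC1 mESCs, were edited with CRISPR/Cas9 according to the study's methods, and grew undifferentiated without feeder cells on gelatin in LIF and serum. Cells of both genotypes met cycloheximide before lysis, and rRNA was depleted before libraries were made with a TruSeq Ribo Profile kit. Each genotype had 2 input and 2 RPF libraries. The methods speak of 2 biological replicates and the labels name no clone, so a difference between clones cannot be told apart from genotype.

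DIS3L2 is a cytoplasmic 3′ to 5′ exoribonuclease that prefers RNA ending in a short tail of uridines, added by the terminal uridylyl transferases TUT4 and TUT7. Its known substrates in mESCs are mostly non-coding, among them the let-7 precursor that LIN28A hands to the transferases and faulty forms of 7SL, the RNA of the signal recognition particle that brings secretory mRNAs to the endoplasmic reticulum (ER). Loss of DIS3L2 in humans causes Perlman syndrome, an overgrowth disorder with a predisposition to Wilms tumour. The comparison asks whether steady-state levels of mRNA change when the enzyme is missing.

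The 4 input libraries held between 8382211 and 33609787 reads, the deepest being knockout replicate 2, and each listed gene had at least 2 reads in each of them. Each listed gene also had at least 1 read in each RPF library. A gene without reads in 1 of the 8 libraries is therefore not listed, and its change cannot be seen here. Values were reads scaled per library without regard to the length of a gene, so they are compared here between libraries and not between genes. The knockout pair was the closest of all pairs of libraries (SD of the log2 difference over genes 0.12). The control pair differed by 0.15, and control replicate 1 lay further from both knockout libraries (0.18 each) than control replicate 2 did (0.15 and 0.14). All 10 markers of mESCs that were listed for checking the cell type were measured, with summed values of 13327 and 12978 in knockout and of 13206 and 13088 in control. Of the markers of other cells, 2 of 11 were measured for fibroblast feeders, 5 of 11 for primitive endoderm, 1 of 7 for trophoblast and 1 of 14 for the 2-cell-like state, and Gata6, Gata4, Sox17, Cdx2, Col1a1 and Thy1 were not among the genes listed. The disrupted gene was not analysed here and could not be used to check which libraries were knockout. The change of translation efficiency that the authors deposited in the same table runs opposite in sign to their library columns, and every direction below follows the names of the columns and would turn with them.

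Most mRNAs stood at nearly the same level in knockout and control cells. The log2 change, knockout minus control, was -0.21 at the 5th percentile of genes and 0.20 at the 95th, and its median was 0.00. The change was under 1.2-fold for 95.8% of genes. For 98.97% of genes the 95% interval of the change stayed within 1.5-fold in either direction (half-width 0.18 on the log2 scale in the median gene). Log2 changes are differences of mean log2 of the value plus 10, which understates the change of low genes. Only 1 gene, Grb10, had a group mean at least 2-fold higher in knockout (0.0126% of those tested), and none had one at least 2-fold lower. These counts cover listed genes only, so a gene without reads in a genotype is not among them. By 1.5-fold, 18 genes were higher (0.227% of those tested) and 8 lower (0.101%).

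In limma's test over all genes, 27 mRNAs passed at a Benjamini-Hochberg adjusted p of 0.05, which is 0.34% of those tested. Of these 19 were higher in knockout (0.239%) and 8 were lower (0.101%). The genotypes did not overlap in any of the 27, which follows from a test that favours groups apart and close replicates. Across all tested genes both knockout values were the higher ones in 22.9% and the lower ones in 21.1%. At an unadjusted p under 0.05 there were 1012 genes, or 12.7%. The count moved with the libraries used, since leaving out 1 library gave 61 genes without knockout replicate 1, 43 without knockout replicate 2, 72 without control replicate 1 and 599 without control replicate 2. Of the 27 genes, 25, 23, 27 and 27 were among them, in that order. On the whole reads of these libraries edgeR's quasi-likelihood test also called 27 genes, 26 of them among the 27 above, and DESeq2 called 43, which include all 27.

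**Figure D1:**
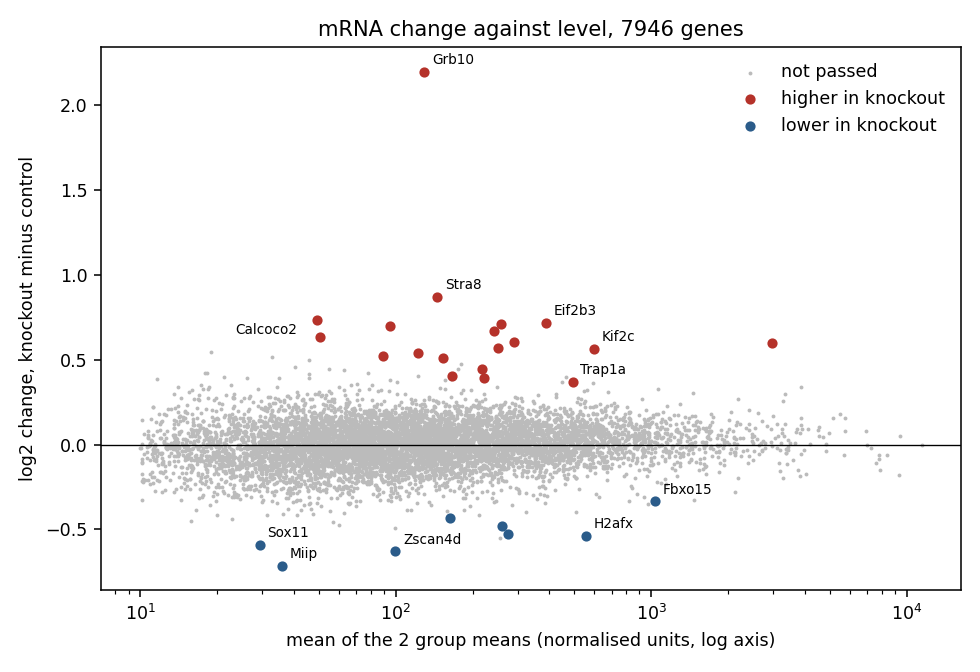
Log2 change of each of 7946 genes, knockout minus control (vertical axis), against the mean of both group means in normalised units (log axis). Red points are the 19 genes that passed as higher in knockout and blue points the 8 that passed as lower. Grb10 stands alone at 2.20, and the other genes that passed lie between -0.71 and 0.87.

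Grb10 showed the largest change of any tested mRNA. It encodes an adaptor that binds the insulin and IGF1 receptors and dampens their signalling, and it is imprinted in the mouse. Its values were 216 and 222 normalised units in the knockout libraries, against 42.5 and 37.5 in the control libraries. Neither knockout library came near a control library, and replicates of a genotype were close. The means of 219 ± 4.1 in knockout and 39.98 ± 3.5 in control (SD, n = 2 each) differ 5.47-fold, with a log2 change of 2.20 (95% interval 2.02 to 2.38, limma adjusted p = 2.22e-07). Across the alternative settings its log2 change ranged from 1.83 to 2.45. The 10 tested genes nearest to Grb10 on chromosome 11 did not share the change (median 0.02, between -0.16 and 0.14, none passed).

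Grb10 has 2 start sites in the RefSeq table of promoters (GRCm38.p6), and they are shown because a value per gene does not say which of them the reads came from. The first is at chr11:12037421-12037670 and the second at chr11:12027972-12028221, both on the minus strand. The 250 bases before each start are given 5′ to 3′ with every CG dinucleotide in capitals.
Grb10 upstream start: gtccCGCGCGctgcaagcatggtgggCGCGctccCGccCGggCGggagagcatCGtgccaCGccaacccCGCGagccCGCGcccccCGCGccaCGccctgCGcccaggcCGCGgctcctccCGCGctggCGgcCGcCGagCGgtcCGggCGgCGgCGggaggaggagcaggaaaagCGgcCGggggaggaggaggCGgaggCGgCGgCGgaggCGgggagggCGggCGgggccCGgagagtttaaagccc
Grb10 downstream start: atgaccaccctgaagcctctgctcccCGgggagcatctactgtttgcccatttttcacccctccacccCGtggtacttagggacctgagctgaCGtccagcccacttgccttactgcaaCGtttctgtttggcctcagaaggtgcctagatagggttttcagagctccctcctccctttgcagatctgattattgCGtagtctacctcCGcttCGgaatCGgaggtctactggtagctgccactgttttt
The upstream window holds 40 CG dinucleotides and the downstream one 8, whereas the median of 32851 such windows in the table is 6 and their 90th percentile 25. Use of the starts was not measured in these libraries.

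Of 31 tested imprinted genes, 3 passed as higher, beside 0.239% of all genes, none passed as lower, and the median log2 change was -0.03 beside 0.00 over all genes. Apart from Grb10, these were Peg10 and Impact. Peg10, a gene derived from a retrotransposon and needed for the placenta, had 290.1 and 355 units in knockout, against 201 and 183 in control. Its knockout replicates were further apart than those of most genes that passed, yet both exceeded the control values (log2 change 0.71, limma adjusted p = 0.00864). Impact, which restrains the eIF2 kinase GCN2, had 261 and 245 units in knockout and 171 and 196 in control (0.44, limma adjusted p = 0.0487), and it missed the threshold in 6 of 16 alternatives, edgeR's test among them (adjusted p = 0.0537). Phlda2, which limits growth of the placenta, had 173 and 188 units in knockout and 229 and 258 in control, a log2 change of -0.41 that did not pass (limma adjusted p = 0.066) but was past the threshold in 6 of 16 alternatives, DESeq2 among them (adjusted p = 0.0135). Values of Igf2r (-0.06), Cdkn1c (-0.08) and Mest (0.02) were close to 0 on the log2 scale. Igf2 and H19 were not among the tested genes. Among 33 tested members of insulin and IGF signalling, whose receptors GRB10 binds, none passed (0.34% of all genes) and the median was -0.03. Igf1r had a log2 change of -0.16, Insr of -0.04 and Irs2 of -0.12, and their adjusted p-values in limma were 0.524, 0.922 and 0.685.

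**Figure D2:**
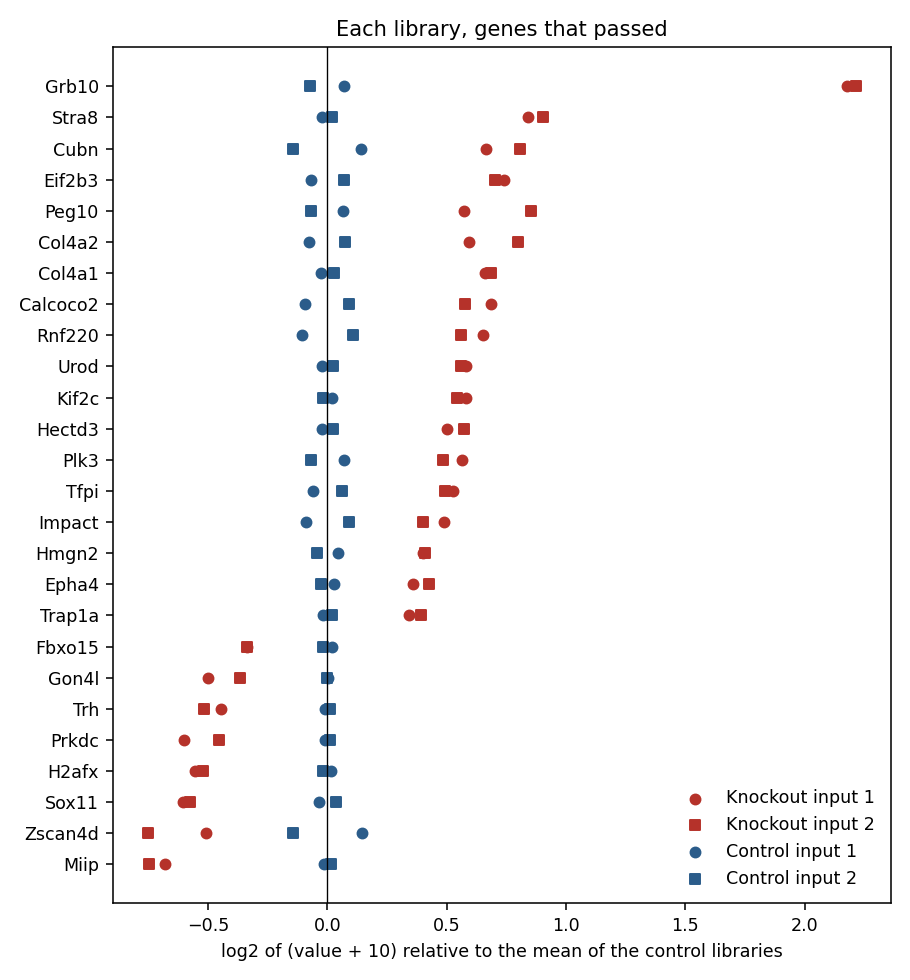
Each library's log2 of the value plus 10, relative to the mean of the control libraries (horizontal axis), for 26 of the 27 genes that passed. Knockout libraries are red and control libraries blue, with circles for replicate 1 and squares for replicate 2. No red point overlaps the blue points of its row, a separation that the test favours in the genes it calls.

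Genes of the basement membrane and of primitive endoderm, the epithelium that lays down the first embryonic basement membrane, had 4 of 24 tested members higher in knockout, beside 0.239% of all genes, and none lower. The median of the list was 0.07, with 14 changes positive and 10 negative. Both knockout values were the higher ones for 11 members (22.9% of all genes) and the lower ones for 4 (21.1%). Col4a1 and Col4a2 encode the chains of the main type IV collagen. Col4a1 had 299 and 304 units in knockout, against 182 and 189 in control (log2 change 0.67, limma adjusted p = 0.00148). Col4a2 had 111 and 129 units in knockout, against 65.9 and 74.3 in control (0.70, limma adjusted p = 0.00955). The 2 genes rose by nearly the same factor, 1.62-fold and 1.71-fold in group means. They lie head to head on chromosome 8 (GRCm38), where the annotation starts Col4a1 at position 11312826 on the minus strand and Col4a2 at position 11312805 on the plus strand, so that the starts overlap by 22 bases. The other 10 tested neighbours of Col4a1 had a median change of 0.12, Col4a2 included.

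Cubn, the endocytic receptor cubilin of visceral endoderm and kidney, had 60.4 and 67.7 units in knockout, against 39.04 and 30.3 in control (log2 change 0.74, limma adjusted p = 0.017). Tfpi, an inhibitor of the tissue factor pathway of coagulation, had 183 and 179 units in knockout, against 119 and 130.03 in control (0.51, limma adjusted p = 0.0153). Both knockout libraries were above both control libraries for each, as for every gene that passed as higher. Of the laminin chains that join with collagen IV in the basement membrane, Lama1 averaged 507 ± 33.0 units in knockout and 390 ± 6.9 in control (SD, n = 2 each), a log2 change of 0.37 just short of the threshold (limma adjusted p = 0.0568). Lamb1 had a log2 change of 0.19 and Lamc1 one of -0.04, with limma adjusted p-values of 0.277 and 0.835. Markers that define primitive endoderm, Gata6, Gata4, Sox7, Sox17, Foxa2 and Pdgfra, were not among the genes listed. The 5 primitive endoderm markers that were listed (Dab2, Cubn, Lama1, Col4a1 and Col4a2) summed to 966 and 1044 units in knockout and to 689.5 and 682 in control. Cubn, Col4a1 and Col4a2 among them had passed and Lama1 was just short, so the sum restates their changes. The only trophoblast marker listed, the keratin gene Krt8, had 41.0 and 39.5 units in knockout and 23.9 and 26.3 in control (log2 change 0.52, limma adjusted p = 0.0568). Whether a change in the share of such cells plays a part was not tested, and in bulk libraries more cells of a type and more RNA per cell cannot be told apart.

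Stra8 had the second largest change. It encodes a retinoic acid-induced factor that licenses germ cells to enter meiosis. Its values were 186 and 195 units in knockout, against 98.1 and 101 in control. The control libraries were almost level with each other and both knockout libraries stood well above them (1.91-fold in group means, log2 change 0.87, 95% interval 0.71 to 1.03, limma adjusted p = 0.000527). The 10 tested neighbours of Stra8 on chromosome 6 had a median change of 0.05, and none passed. Other meiosis and germline genes did not pass: of 32 tested members Stra8 was the only one, beside 0.34% of all genes, and the median was 0.01. Dazl, an RNA-binding protein of germ cells, had 37.0 and 38.1 units in knockout and 33.7 and 33.8 in control (limma adjusted p = 0.604). Sycp3, Mael, Tex101 and Taf7l were not among the tested genes.

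The promoter of Stra8 is shown because it was the strongest change after Grb10 and its sequence is rich in a known promoter motif. The 250 bases before its RefSeq start lie at chr6:34920698-34920947 (GRCm38.p6, plus strand) and are printed 5′ to 3′ with the motif CCAAT, on either strand, in capitals.
Stra8: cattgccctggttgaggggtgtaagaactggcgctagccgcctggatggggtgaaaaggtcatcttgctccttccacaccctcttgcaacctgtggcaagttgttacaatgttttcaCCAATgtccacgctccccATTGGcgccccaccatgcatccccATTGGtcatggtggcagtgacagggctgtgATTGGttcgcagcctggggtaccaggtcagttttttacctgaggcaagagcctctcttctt
The window holds the motif 4 times, of which 3 are on the opposite strand and read in reverse complement here. Of 32851 windows of the same length 33.8% hold it at least once and 2.79% at least 3 times. Because the window was chosen in part for its motifs, these shares describe it and are no test. Of the 27 genes that passed, 19 matched the table, with 22 windows, and 10 of these windows hold CCAAT at least once. The 2 windows of Miip, both among these 10, overlap. The TATA box, searched as TATAAA on both strands, was in 3 of the 22 (12.4% of all windows) and the E-box CACGTG in 2 (6.02%). A match describes the letters of a window and not a factor bound there.

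Of the 19 genes that were higher in knockout, 7 lay in 1 stretch of chromosome 4. The stretch runs from Urod to Rnf220, positions 116989965 to 117497052 (GRCm38), about 507 kb. It holds 9 tested genes, which had a median log2 change of 0.56, or 1.48-fold. The 7 of them described here lay between 0.34 and 0.72. Because the ends were set by the genes that passed, these values are a description. For all 9 genes both knockout values exceeded both control values (22.9% of all genes), which the test favours in the 7 that passed. Outside the stretch the changes were smaller, between -0.27 and 0.23 within 500 kb to either side, and none passed. The 10 tested genes before it had a median of -0.03 (between -0.27 and 0.07) and the 10 after it one of -0.05 (between -0.20 and 0.02).

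The genes of the stretch have unrelated roles. Eif2b3, a subunit of eIF2B, the exchange factor that reloads eIF2 with GTP, had 491 and 478 units in knockout, against 277 and 305 in control (log2 change 0.72, limma adjusted p = 0.00145). Kif2c, a kinesin that takes microtubules apart at centromeres, had 722 and 703 units in knockout, against 486 and 473 in control (0.56, limma adjusted p = 0.00252). For both genes the gap between genotypes was several times the gap between replicates. Urod, an enzyme of haem synthesis, had 304 and 299.7 units in knockout, against 196 and 203 in control (0.57, limma adjusted p = 0.00329). Rnf220, a ubiquitin ligase, had 363 and 339.9 units in knockout, against 211 and 245 in control (0.61, limma adjusted p = 0.00924). Hectd3, another ubiquitin ligase, and Plk3, a polo-like kinase of the stress response, had log2 changes of 0.54 and 0.52 (limma adjusted p = 0.0103 and 0.0287). Btbd19 had one of 0.34 and did not pass (limma adjusted p = 0.278).

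**Figure D3:**
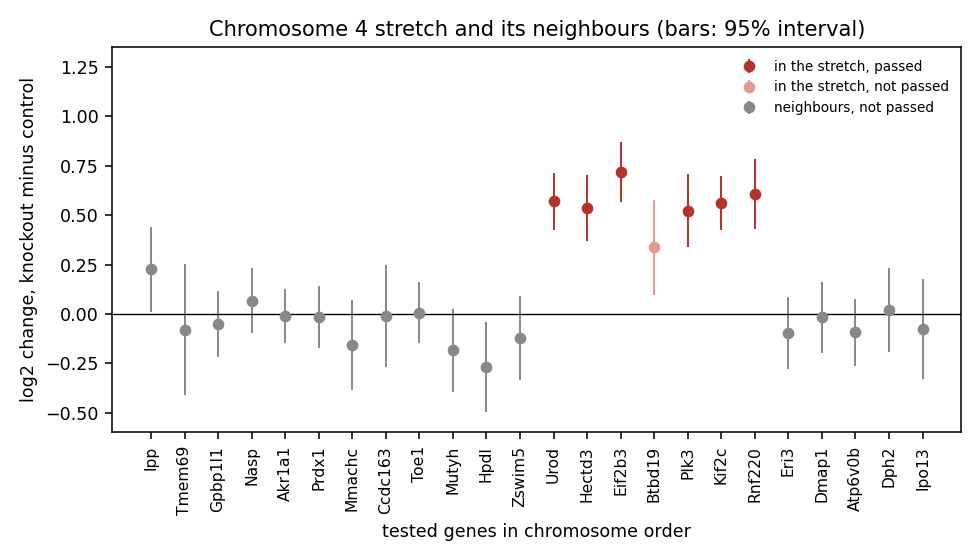
Log2 change, knockout minus control, with its 95% interval (vertical axis), of tested genes in chromosome order (horizontal axis) through the stretch and 500 kb to either side. The 7 genes shown from Urod to Rnf220, of 9 tested, lie between 0.34 and 0.72. The neighbours on both sides lie between -0.27 and 0.23, and none of them passed.

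Where genes of the stretch fell into a functional list, no other member of that list passed. As 0.34% of all genes passed, the lack of further calls does not set these lists apart. Eif2b3 was the only one of 53 translation initiation factors that passed (median 0.03). Its partners in eIF2B, Eif2b1 (0.01), Eif2b2 (-0.02), Eif2b4 (-0.03) and Eif2b5 (0.01), had changes close to 0. Plk3 was the only one of 32 p53 target genes (median 0.01). Cdkn1a, which encodes the cell cycle inhibitor p21, had a change of -0.08, Mdm2 one of 0.11 and Ccng1 one of 0.28 (limma adjusted p = 0.833, 0.54 and 0.145).

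Medians of whole chromosomes were near 0. The median change of the 19 autosomes and X lay between -0.04 on chromosome 17 and 0.03 on chromosome 18. Medians of the difference between the control libraries spanned -0.02 to 0.02 in the same chromosomes. The 8 tested genes of the mitochondrial genome had a median of 0.16. Both knockout values were the higher ones for 4 of them (22.9% of all genes), and the genotypes overlapped for the others. None of these 8 passed, beside 0.34% of all genes, and their changes lay between 0.05 and 0.42. The largest were mt-Nd6 (64.9 and 119 units in knockout, 56.9 and 70.8 in control), mt-Atp8 (13.1 and 15.9, against 7.08 and 10.5) and mt-Nd5 (4876 and 3780, against 3522 and 3268), and the knockout libraries disagreed with each other in mt-Nd6 and mt-Nd5. The 78 nuclear-encoded genes of oxidative phosphorylation had a median of -0.03 and none passed, beside the same 0.34%.

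The other genes that were higher in knockout were Calcoco2, Hmgn2, Epha4 and Trap1a. Calcoco2, which encodes the autophagy receptor NDP52, had 66.5 and 61.1 units in knockout, against 34.6 and 40.8 in control (log2 change 0.63, limma adjusted p = 0.0207). Hmgn2, a nucleosome-binding protein with many processed copies in the genome, had 191 and 192 units in knockout, against 147 and 138 in control (0.40, limma adjusted p = 0.0477). Epha4, a receptor for ephrins, had 247 and 259 units in knockout, against 194 and 187 in control (0.39, limma adjusted p = 0.0477). Trap1a, an X-linked gene known as a tumour rejection antigen, had 547 and 567 units in knockout, against 423 and 436 in control (0.37, limma adjusted p = 0.0419). Calcoco2 passed under each alternative that tested it, whereas Hmgn2, Epha4 and Trap1a missed the threshold in 5, 6 and 6 of 16.

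The mRNAs that were lower in knockout included 2 genes of the response to DNA breaks. H2afx encodes the histone variant that is phosphorylated beside double-strand breaks, and had 445 and 455 units in knockout, against 666 and 649.9 in control (log2 change -0.54, limma adjusted p = 0.00329). Prkdc encodes the catalytic subunit of the DNA-dependent protein kinase of end joining, and had 213 and 237 units in knockout, against 325 and 330.1 in control (-0.53, limma adjusted p = 0.00955). The group means in knockout were 0.684 and 0.686 times those in control, and libraries of a genotype kept together. They were the only ones of 68 tested DNA damage and end-joining genes that passed, beside 0.101% of all genes that passed as lower, and the median of the list was -0.04. Xrcc5, whose product KU80 binds broken ends and recruits the kinase, had a change of -0.03, Atm one of -0.10, Trp53bp1 one of -0.03 and Brca1 one of -0.05.

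Miip, which encodes an inhibitor of cell migration, fell most, with 25.5 and 23.9 units in knockout, against 46.4 and 47.5 in control (log2 change -0.71, limma adjusted p = 0.00864). It lies on chromosome 4 far from the stretch described above, and its 10 tested neighbours had a median of -0.05. Sox11, a factor of neural progenitors, had 21.1 and 21.7 units in knockout, against 36.1 and 38.5 in control (-0.59, limma adjusted p = 0.0294). Trh, the precursor of thyrotropin-releasing hormone, had 221 and 209.8 units in knockout, against 302 and 307 in control (-0.48, limma adjusted p = 0.01). In these 3 genes both libraries of a genotype lay close together, which the test favours. Gon4l, a nuclear regulator of transcription, had 130.3 and 144 units in knockout, against 189 and 188 in control (-0.43, limma adjusted p = 0.0458). Zscan4d, of the zinc finger genes that mark 2-cell-like cells, had 83.4 and 68.9 units in knockout, against 137 and 110.3 in control (-0.63, limma adjusted p = 0.0477). It belongs to a cluster of near-identical genes, of which it was the only one listed, so its reads may stand for several of them. The other 3 tested genes of the 2-cell-like list, Dppa2, Dppa4 and Eif1a, did not pass. The next 5 mRNAs by p among those lower in knockout without passing were Enpp3 (-0.39), Cdh3 (-0.49), Phlda2 (-0.41), Elob (-0.40) and Irf2bp1 (-0.46), with limma adjusted p-values between 0.0564 and 0.068. Each of these 5 was past the threshold in 3 to 8 of the alternatives that tested it.

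Pluripotency factors had small changes, between -0.36 and 0.23 on the log2 scale. Pou5f1, which encodes OCT4, had 3956 and 3894 units in knockout and 3972 and 4061 in control (log2 change -0.03). Nanog (-0.04), Sox2 (-0.04), Klf4 (0.11), Zfp42 (0.09) and Esrrb (-0.21) did not pass. Of 43 tested factors 1 passed, as lower, beside 0.101% of all genes, and the median was -0.04. At an unadjusted p under 0.05 there were 15 of the 43 (12.7% of all genes), and the genotypes did not overlap for 13 with knockout higher (22.9%) and for 17 with knockout lower (21.1%). It was Fbxo15, an F-box gene activated by OCT4 and SOX2, with 917 and 917 units in knockout, against 1174 and 1146 in control (-0.34, limma adjusted p = 0.0477). Fbxo15 had the smallest change among the genes that passed and missed the threshold in 6 of 16 alternatives. Of 18 tested genes of epiblast and early germ layers, Sox11 was the only one that passed, beside 0.34% of all genes. The median of that list was -0.10. Otx2 (0.16) and Nes (-0.11) did not pass, and Fgf5 and T were not among the tested genes. Of 51 signalling genes of the WNT, FGF, BMP and LIF pathways none passed, beside 0.34% of all genes, with a median of -0.06. The change was negative for 37 of them and positive for 14, counts for which no share over all genes is given here. Both knockout values were the lower ones for 21 (21.1% of all genes) and the higher ones for 5 (22.9%). Dusp6 had a change of -0.19, Spry4 of -0.20, Socs3 of -0.20 and Id3 of -0.16, and these feedback genes and targets had adjusted p-values between 0.34 and 0.551 in limma. Lifr, also of that list, had a change of -0.002.

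Genes around the enzyme's own pathway did not pass. In the list of 89 tested genes for decay and uridylation of RNA none passed, beside 0.34% of all genes, and the median was 0.01. The transferases Zcchc6 (TUT7) and Zcchc11 (TUT4) had changes of 0.18 and -0.06, the exosome nucleases Dis3 and Dis3l of 0.05 and -0.15, and Xrn1, the 5′ to 3′ nuclease, of 0.05. Lin28a, which brings the transferases to the let-7 precursor, had 257 and 249.7 units in knockout and 240.1 and 239 in control (0.08, limma adjusted p = 0.652). Of 33 tested targets of let-7 none passed, beside 0.34% of all genes, with a median of -0.02. Mycn had the lowest change of that list, with 162 and 175 units in knockout and 207 and 235 in control (-0.36, limma adjusted p = 0.132). Trim71 and Igf2bp1, further targets of let-7, had changes of -0.07 and 0.09.

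The machinery of ER targeting and the stress pathways that watch over the ER had no member that passed. As 0.34% of all genes passed, lists of this size would mostly hold none, so this does not set them apart. None of 48 tested genes of the signal recognition particle, translocon and ER membrane targeting passed (median 0.02). Both knockout values were the higher ones for 17 of them (22.9% of all genes) and the lower ones for 8 (21.1%). Srp68, a subunit that binds 7SL RNA, had a change of 0.08, Sec61a1, the channel of the translocon, one of 0.00 and Srpr, the receptor of the particle, one of -0.22 (limma adjusted p = 0.331). Among 65 genes of the unfolded protein and integrated stress responses none passed (median 0.02). Hspa5, the ER chaperone BiP, had 1706 and 1589 units in knockout and 1500.1 and 1581 in control (0.10, limma adjusted p = 0.56). Atf4 (0.16), Xbp1 (0.15), Trib3 (0.04), Asns (0.01) and Hsp90b1 (0.02) did not pass. Of 47 genes of calcium handling none passed, with a median of 0.05 beside 0.00 over all genes. The change was positive for 32 and negative for 15. The share of positive changes over all genes is not given here, so these counts have no base to be set against. The genotypes did not overlap for 15 with knockout higher (22.9% of all genes) and for 8 with knockout lower (21.1%). Orai1, a calcium channel of the plasma membrane, had the largest change of that list, with 10.5 and 13.2 units in knockout and 21.7 and 18.004 in control (-0.45, limma adjusted p = 0.188). Atp2a2, the calcium pump of the ER, had a change of 0.03, Itpr1, its release channel, one of -0.12, Stim1, its calcium sensor, one of 0.19, and Pkd1 and Pkd2 ones of 0.08 and -0.11.

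**Figure D4:**
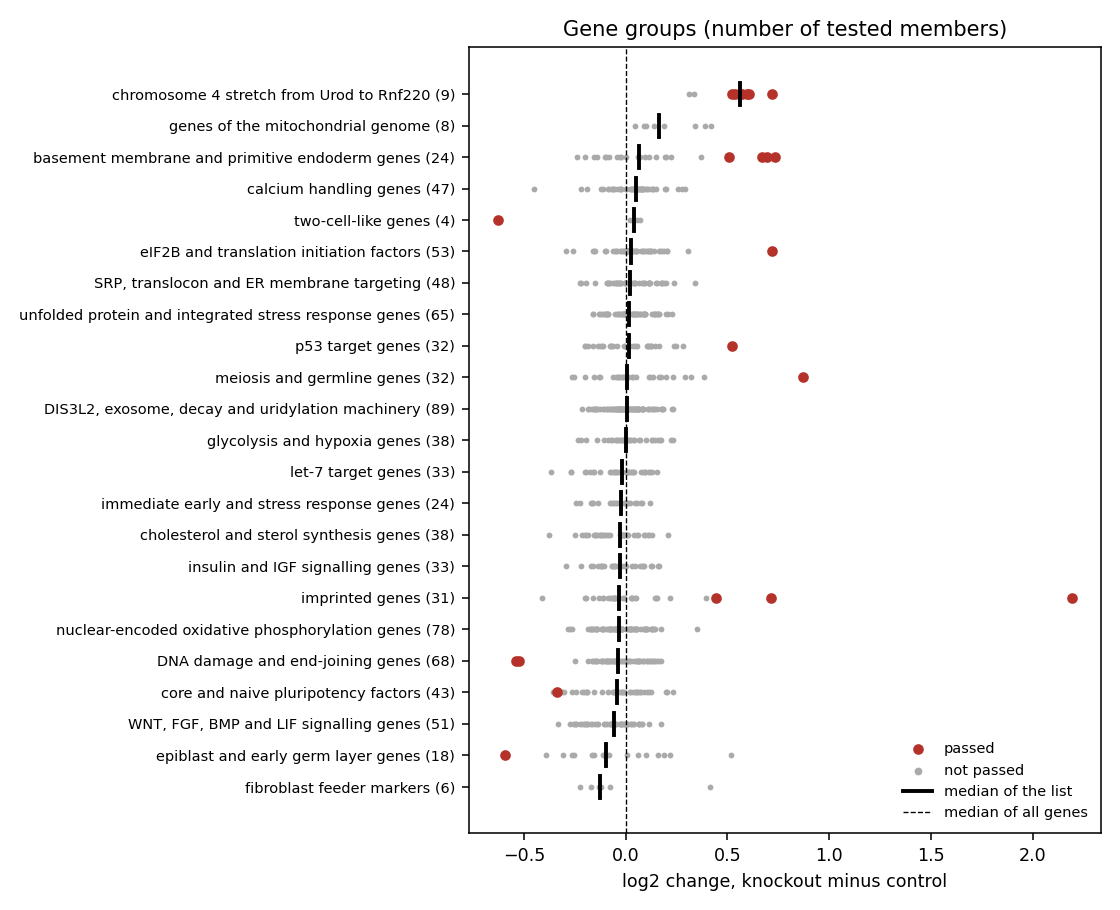
Log2 change, knockout minus control (horizontal axis), of the tested members of each gene group, with the number of tested members in brackets. Each point is a gene, red where it passed and grey where it did not, black bars are group medians and the dashed line is the median of all genes. Apart from the chromosome 4 stretch and the mitochondrial genome, the medians lie between -0.13 and 0.07.

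Metabolic and housekeeping groups had medians near 0. None passed among 38 genes of cholesterol synthesis (median -0.03, with Sqle at 0.01), 38 of glycolysis and hypoxia (median 0.00, with Hk2 at -0.07, Ldha at 0.04 and Slc2a1 at -0.11) or 24 immediate early and stress genes (median -0.02). The share over all genes was 0.34%. The 6 tested fibroblast markers had a median of -0.13 and none passed. Their changes ran between -0.23 and 0.41, with Vim at -0.13. Among 58 replication-dependent histone genes, of which none passed, the median was -0.04, and their changes ran between -0.55 and 0.44. Many histone genes share nearly all their sequence, so single values among them are uncertain.

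Changes of mRNA followed base composition weakly. Across 7942 genes, which are not independent replicates, the log2 change had a Spearman correlation of -0.29 with the GC content of the transcript and of 0.02 with its length. In the fifth of genes with the least GC (31.9 to 44.4%) the median change was 0.05, and in the fifth with the most (55.9 to 71.3%) it was -0.05. The difference of control replicate 1 minus control replicate 2 was also related to GC (0.14) and to length (0.20), and that of knockout replicate 1 minus knockout replicate 2 to length (-0.22) and less to GC (-0.02). Against each control library alone, the mean of the knockout libraries had a correlation with GC of -0.28 (control replicate 1) and -0.20 (control replicate 2). After a smooth correction for GC 27 genes passed, 23 of them among the 27 above, and those lost were Trap1a, Epha4, Hmgn2 and Impact.

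The RPF libraries gave a second readout of the same cells, made as separate libraries. They were shallow, with 268255 and 140163 reads in knockout and 558962 and 1126782 in control, and the 95% interval of a log2 change had a half-width of 0.81 in the median gene. At a mean of at least 50 units 6260 genes were tested, of which 39 passed (0.623%). Of the 27 genes that passed in input, 24 were tested and 20 had a log2 change of the same sign, 16 of 19 that were higher and 4 of 5 that were lower. The genotypes did not overlap for 10 of these 19, with knockout higher (21.6% of all genes tested), and for 2 of these 5, with knockout lower (20.8%). The share of all genes with the same sign in input and RPF is not given here, so 20 of 24 has no base to be set against.

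Grb10 was the only one of the 24 that passed in RPF by limma. It had 493 and 342 units in the knockout libraries (60 and 22 reads), against 39.4 and 81.4 in the control libraries (10 and 42 reads), a log2 change of 2.65 (95% interval 1.80 to 3.49, adjusted p = 0.00333). Urod had 419 and 544 units in knockout, against 228 and 219 in control (1.06, limma adjusted p = 0.133). Fbxo15 had 320.4 and 358 units in knockout, against 851 and 553 in control (-0.998, limma adjusted p = 0.138). These 3 genes passed with edgeR's quasi-likelihood test on the RPF reads, an alternative added after the data were seen (adjusted p = 7.17e-07, 0.0327 and 0.0247), in which 90 genes passed in all. Prkdc had 115 and 93.3 units in knockout, against 236 and 235 in control (-1.11, limma adjusted p = 0.263). H2afx, lower in knockout input, did not pass in RPF, with 3821 and 3328 units in knockout and 2643 and 3221 in control (0.29, limma adjusted p = 0.532). Kif2c, Epha4 and Trap1a also had RPF values of opposite sign (-0.03, -0.06 and -0.15), within wide intervals that include 0. Stra8 rested on 10 and 9 RPF reads in knockout and 13 and 54 in control, and its groups overlapped (0.49, limma adjusted p = 0.759). Sox11, Miip and Zscan4d were under the filter in RPF.

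**Figure D5:**
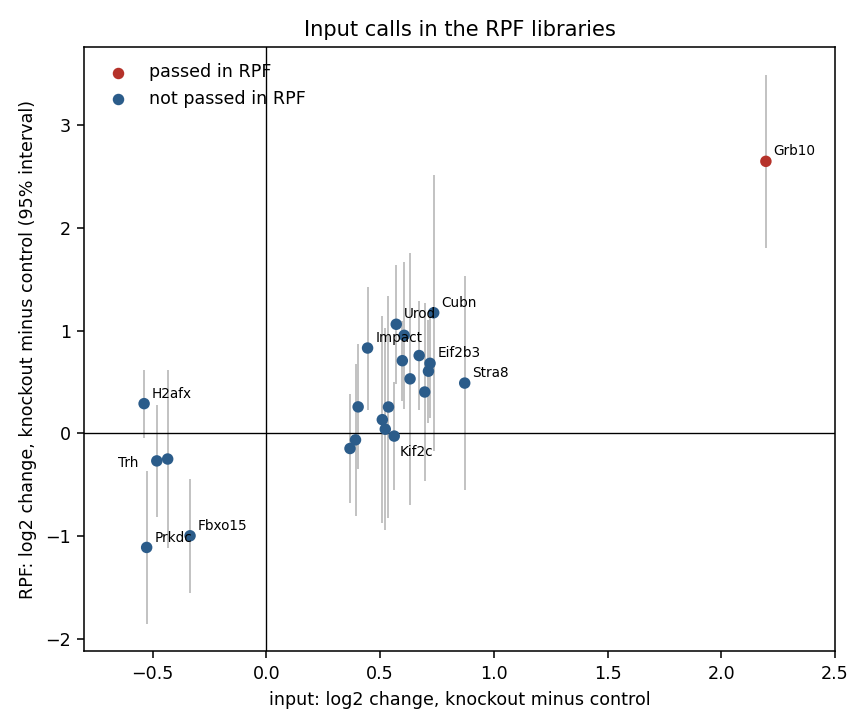
Log2 change in RPF with its 95% interval (vertical axis) against the log2 change in input (horizontal axis), knockout minus control, for the 24 genes that passed in input and were tested in RPF. The red point, Grb10, is the only one that passed in RPF, and H2afx is lower in knockout input with an RPF value of 0.29.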

How the data were processed

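According to the methods of the study, adapters were trimmed by the authors, who removed reads of rRNA and tRNA and aligned the rest to canonical gene models of mm10 with Bowtie, allowing a single mismatch. Neither the version of Bowtie nor the treatment of reads with several matches is known from the sources used here. As deposited by the authors, values of each library are a signal headed RPKM, in which every gene of a library sits at a whole number of equal steps (100% of values, tolerance 0.02 read, the furthest input value being 5.27e-05 of a read away), so that they are scaled reads with no division by length. The deposited table also holds the authors' own log2 change of translation efficiency with its p-values, which entered no test and of which only the sign was set against the library columns. Gene positions came from GENCODE M21 (GRCm38), which matched 8125 of 8125 genes, and 14 symbols stored as dates were replaced.

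Input was compared between genotypes with limma 3.58.1 in R 4.3.3 (lmFit, eBayes with a mean trend, two-sided) on log2 of the value plus 10, in genes with a mean of at least 10, with Benjamini-Hochberg adjustment over all of them and a threshold of 0.05. RPF was compared likewise at a mean of at least 50, with edgeR 4.0.16 on its whole reads as an alternative. Whole reads of input were tested with edgeR and with DESeq2 1.42.0 as alternatives. An exact test of 2 against 2 libraries cannot go below 0.333, and p-values measure the spread between these libraries only. Without molecular identifiers, depth bears on counting error alone. The fit was run on simulated data drawn with its own variance estimates, which cannot check its assumptions.

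The members, gene lists and filters were chosen with earlier results of these data known. Lists are described by counts and medians, with no test. As 0.34% of all genes passed, most lists of this size would hold no call, so a list without one is not set apart by that. Named genes were those that passed, the 5 of smallest p that were lower without passing, fixed members of each list and the neighbours within 500 kb of the chromosome 4 stretch. Orai1 and Krt8 were named after their values were seen. Results for a few genes that meet this rule were not included. The fit was repeated with pseudocounts of 1 and 30, with no filter and a mean of at least 100, equalised medians, TMM scaling, thinned reads, no trend, the replicate number as a block and each library left out, and with a correction for GC. That correction and edgeR on RPF reads were added after the data were seen. Promoter sequences are from RefSeq (GRCm38.p6).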

Additional observations from a re-analysis of the deposited data

How the results depend on the processing

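Of 425 values of the 27 genes under 16 alternatives, 388 kept their direction and their side of the threshold, 37 kept the direction but missed the threshold, and none turned. Among the 27 genes 18 passed in every alternative that tested them, and Trap1a, Epha4, Fbxo15, Hmgn2, Impact, Gon4l, Zscan4d, Plk3 and Tfpi missed it in at least 1. With a mean of at least 100, which tests 4319 genes, 14 passed (11 higher and 3 lower). DESeq2, which gave an adjusted p for 7175 genes, called 43 (25 higher and 18 lower). TMM scaling and a fit without a mean trend each left 5 lower genes of 8. Leaving out 1 library gave between 43 and 599 genes, 24 to 299 higher and 19 to 300 lower. Then the spread of the lone library's genotype is taken from the other pair, and the count of 599 arose without control replicate 2. For the mitochondrial genome the median was 0.10 in the 5 genes with a mean of at least 100. In RPF 84 genes passed at a mean of at least 200, of 2567 tested, and 90 by edgeR, against 39, and of the 27 genes 4 passed in either case, against 1. The causes were not tested.

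With the replicate number as a block 69 genes passed, 40 higher and 29 lower, all 27 among them. Same-numbered libraries deviated together only weakly (correlation 0.08 over genes, with 2 pairs), so the numbers were not taken as a pairing. A crossed block was not run. Precision is limited in input by 2 libraries per genotype and in RPF also by depth.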
